A study of Mus musculus with 12 samples.

Results

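Blood transcripts of 10 neutrophil alarmin and granule genes were followed across 12 microarrays, out of 27381 features measured on each. The genes were chosen by name and matched to the arrays through their Entrez gene numbers, and all 10 were found. They were grouped by name into 6 termed mature products (S100a8, S100a9, Retnlg, Mmp8, Mmp9 and Slpi) and 4 termed early granule genes (Ltf, Camp, Ngp and Lcn2). These terms are labels, and the stage at which each gene is transcribed was not measured.

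Each array held blood RNA pooled from 7 mice, and the 4 groups of 3 arrays were untrained mice and trained mice, each before (pre) and after (post) the training period. All mice were of the C57B16/J strain as the labels spell it, which the study's methods write as C57Bl6/J. The mice were of both sexes and had a head bar fixed by surgery at 8 to 12 weeks of age with 7 days of recovery. They were kept short of water and held on an air-cushioned ball, and every pool was depleted of globin transcripts. Trained mice learned to answer a visual cue for water, whereas untrained mice, the controls, received water at random intervals. The study's methods place the pre blood at surgery, from a nick above the fronto-nasal sinus, and the post blood at death, from the trunk, so the place of bleeding, the age of the mice, the surgery and the lack of water cannot be told apart from time. Replicates 1 and 2 of every group were batch 1 and replicate 3 was batch 2, which the study describes as a repeat of the experiment. The labels count 34 mice (16 male, 18 female), fewer than separate pools of 7 would need. The study's paper counts more mice and describes the first 2 pools of each condition as unique, thus biological replicates. The sources do not settle whether pools shared mice, so the p-values reflect only how far these pools lay apart, which may be technical. The median of the log2 values ranged from 1.436 to 1.519 among the arrays.

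Neutrophils are short-lived phagocytes that leave the bone marrow for the blood and store antimicrobial proteins in granules filled in a fixed order as the cell matures. Primary granule genes are transcribed in promyelocytes and those of specific granules, such as Ltf, Camp, Ngp and Lcn2, in myelocytes and metamyelocytes, whereas circulating neutrophils keep a high content of the S100a8 and S100a9 messages. S100a8 and S100a9 encode the subunits of calprotectin, a calcium-binding complex that withholds zinc and manganese from microbes and acts as an alarm signal when it leaves the cell. In whole blood, fewer cells of a type and less RNA per cell cannot be told apart.

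The windows before the start sites of the genes that passed the test over the training period are shown together with that of Ltf, the member whose difference had the opposite sign. Each is the 250 bases upstream of the annotated start, 5′ to 3′ on the strand of the gene, from RefSeq on build GRCm38.p6, and capitals mark matches on either strand to TTNNGNAA, a simplified recognition site of the C/EBP factors that direct granulocyte genes.
S100a8 (chr3:90668821-90669070, plus strand): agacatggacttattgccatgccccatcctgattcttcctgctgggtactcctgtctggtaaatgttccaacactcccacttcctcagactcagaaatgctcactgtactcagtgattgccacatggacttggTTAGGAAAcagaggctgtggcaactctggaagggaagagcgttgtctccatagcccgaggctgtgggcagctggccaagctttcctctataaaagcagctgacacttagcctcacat
S100a9 (chr3:90695722-90695971, minus strand): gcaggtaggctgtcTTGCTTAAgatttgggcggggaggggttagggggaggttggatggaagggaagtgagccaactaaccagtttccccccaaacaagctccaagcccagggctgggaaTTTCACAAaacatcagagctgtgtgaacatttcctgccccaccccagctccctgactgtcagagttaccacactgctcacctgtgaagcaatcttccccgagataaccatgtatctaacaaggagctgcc
Retnlg (chr16:48872358-48872607, plus strand): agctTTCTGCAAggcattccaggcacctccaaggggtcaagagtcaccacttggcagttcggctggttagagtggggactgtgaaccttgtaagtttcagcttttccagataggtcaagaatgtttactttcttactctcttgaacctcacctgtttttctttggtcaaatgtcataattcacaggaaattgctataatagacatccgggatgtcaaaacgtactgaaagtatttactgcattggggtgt
Ltf (chr9:111019042-111019291, plus strand): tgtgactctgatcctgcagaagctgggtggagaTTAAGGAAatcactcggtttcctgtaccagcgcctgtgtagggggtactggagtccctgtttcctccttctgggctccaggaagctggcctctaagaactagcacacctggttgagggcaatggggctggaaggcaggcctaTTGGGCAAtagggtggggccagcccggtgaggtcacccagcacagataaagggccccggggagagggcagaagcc
The table held such a window for 9 of the 10 genes, and Mmp9 was not matched. A C/EBP match lay in 8 of the 9, the exception being Camp, against 36.8% of all 32851 promoter windows of the same length. GAGGAA, a core site of the myeloid factor PU.1 searched on both strands, lay in 4 of the 9 (S100a8, Mmp8, Ltf and Lcn2) against 23.3% of all windows. The TATA box TATAAA, searched on both strands, lay in S100a8 alone, 30 bases before the start, against 12.4% of all windows. In the windows printed here no motif overlapped another, and a match describes the letters only. S100a8 and S100a9 lie 22.6 kb apart on chromosome 3, Camp and Ngp 570.4 kb apart and Ngp and Ltf 596.3 kb apart on chromosome 9, and Slpi and Mmp9 583.8 kb apart on chromosome 2.

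Both alarmin transcripts were about 2-fold lower in blood after the training period than before it. S100a8 stood at a log2 intensity of 7.71, 7.97 and 7.73 in untrained pre replicates 1, 2 and 3 and at 6.73, 7.04 and 6.50 in untrained post replicates. In trained mice it stood at 8.01, 7.79 and 7.82 before and at 7.38, 7.02 and 6.14 after. All 6 pre arrays were above all 6 post arrays, and trained post replicate 3, of batch 2, was the lowest of the 12. The change was -1.05 log2 in untrained mice (SE 0.21, n = 3 arrays per group, limma adjusted p = 0.0453), which passed the threshold of 0.05, and -1.03 in trained mice (SE 0.21, adjusted p = 0.066), which did not. Over both groups together S100a8 fell by 1.04 log2, or 2.05-fold (SE 0.15, limma adjusted p = 0.00432).

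S100a9, the partner subunit, had log2 levels of 6.74, 7.24 and 6.80 in untrained mice before the period and of 5.83, 6.27 and 5.62 after it. Its levels in trained mice were 6.96, 7.20 and 6.67 before and 6.54, 6.16 and 5.61 after. Here too the pre and post arrays did not overlap, the closest being trained post replicate 1 (6.54) and trained pre replicate 3 (6.67). S100a9 fell by 1.02 log2 in untrained mice (SE 0.18, limma adjusted p = 0.0366) and changed by -0.84 in trained mice (SE 0.18, adjusted p = 0.088), which missed the threshold. Over both groups it fell by 0.93 log2, or 1.90-fold (SE 0.13, limma adjusted p = 0.0041).

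Retnlg encodes resistin-like gamma, a small secreted cysteine-rich protein of mouse myeloid cells, and had the largest decrease of the 10 genes over both groups. Its log2 levels in untrained mice were 6.59, 7.29 and 6.25 before and 5.29, 5.56 and 5.35 after. In trained mice they were 6.94, 7.22 and 5.98 before and 5.93, 5.47 and 4.18 after. The 3 untrained post arrays lay close together (SD 0.14), whereas the trained post arrays spread widely (SD 0.91) around the low value of replicate 3. Retnlg fell by 1.52 log2 in trained mice (SE 0.27, limma adjusted p = 0.048) and by 1.22 without trained post replicate 3, where it was no longer called. In untrained mice the difference was -1.31 (SE 0.27, adjusted p = 0.0564), and over both groups Retnlg fell by 1.42 log2, or 2.67-fold (SE 0.19, limma adjusted p = 0.00392).

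The calls within a training group did not hold when arrays were left out, whereas those over both did. With each of the 6 arrays left out in turn, S100a8 in untrained mice was called in 0 of 6 fits (limma adjusted p up to 0.204), S100a9 in untrained mice in 2 of 6 (up to 0.162) and Retnlg in trained mice in 1 of 6 (up to 0.225). Over both groups S100a8, S100a9 and Retnlg were each called in 12 of 12 such fits, with adjusted p up to 0.0171. Trained post replicate 3 was the lowest of the 12 arrays for S100a8, S100a9, Retnlg and Mmp8, and without it the change over both groups was -0.89 log2 for S100a8, -0.86 for S100a9 and -1.27 for Retnlg. The changes had the same sign in both batches. For S100a8 they were -0.82 log2 in batch 1 and -1.46 in batch 2, for S100a9 -0.83 and -1.12, and for Retnlg -1.45 and -1.36, over both groups.

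**Figure D1:**
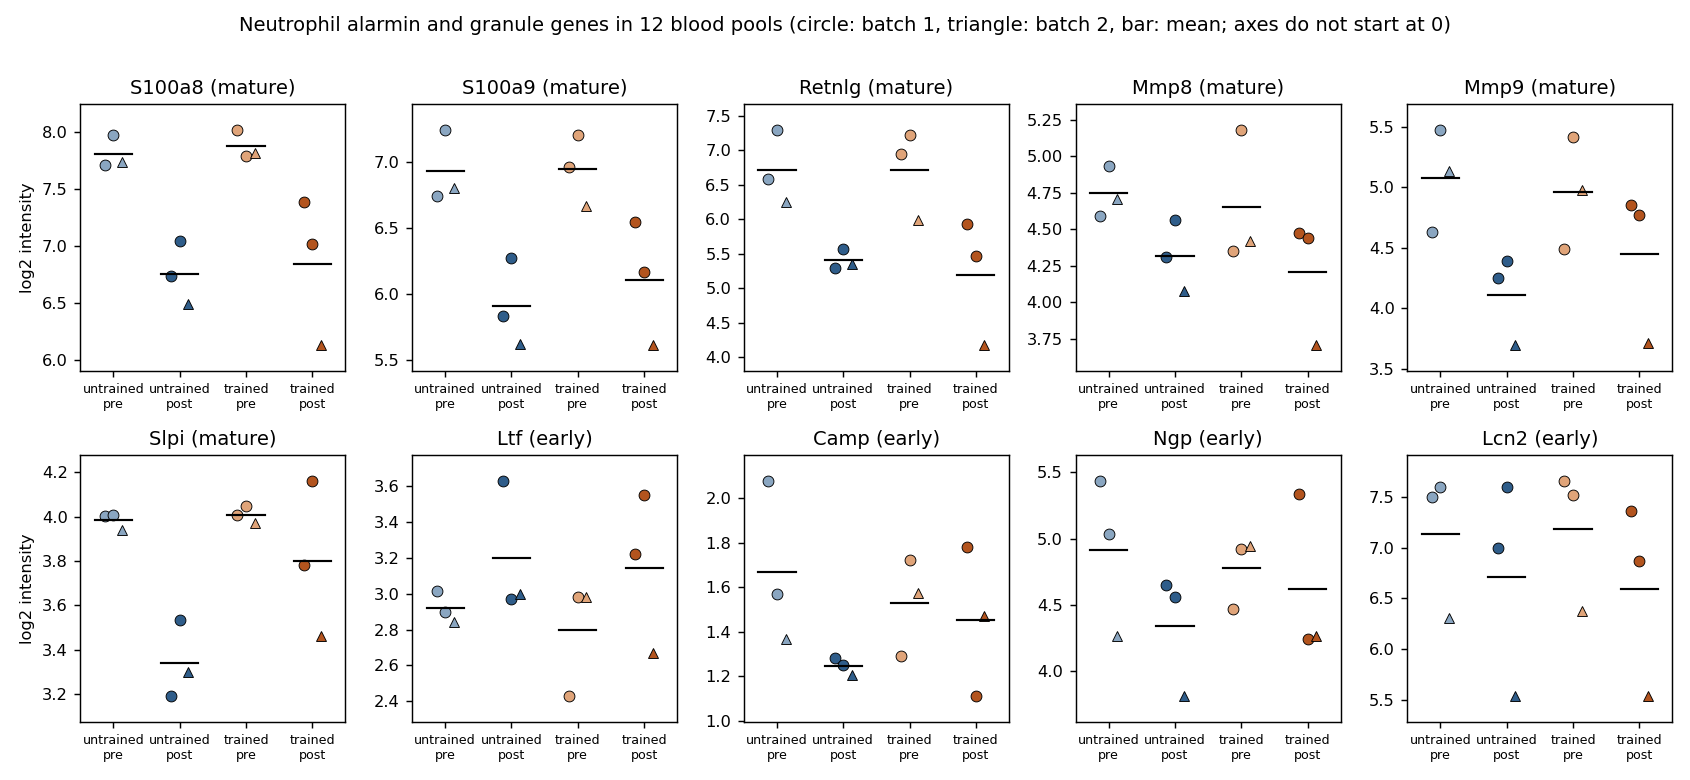
Log2 intensity of each gene in the 12 blood pools, with 1 panel per gene, the 4 groups on the x axis, replicates 1 to 3 from left to right, circles for batch 1, triangles for batch 2 and bars for group means (n = 3). The pre and post arrays of S100a8, S100a9 and Retnlg do not overlap, and the 4 triangles of Lcn2 lie below all 8 circles.

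The granule metalloproteinases were lower after the period without passing the test. Mmp9, gelatinase B, which cleaves denatured collagen and basement membrane, had log2 levels of 4.63, 5.47 and 5.14 before and 4.25, 4.39 and 3.70 after in untrained mice. In trained mice Mmp9 stood at 4.49, 5.42 and 4.98 before and at 4.86, 4.77 and 3.71 after. Its groups were separate in untrained mice and overlapped in trained mice, where only replicate 3 was lower than every pre array. The Mmp9 difference was -0.97 log2 in untrained (SE 0.30, limma adjusted p = 0.177), -0.52 in trained (SE 0.30, adjusted p = 0.621) and -0.74 over both (SE 0.21, adjusted p = 0.0859). In trained mice it was -0.14 in batch 1 and -1.27 in batch 2.

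Mmp8, the neutrophil collagenase, had log2 levels of 4.59, 4.94 and 4.71 before and 4.31, 4.56 and 4.07 after in untrained mice, and of 4.35, 5.18 and 4.42 before and 4.48, 4.44 and 3.71 after in trained mice. The untrained groups were separated by a gap of only a few hundredths, and the trained groups overlapped. The differences, -0.43 log2 in untrained (SE 0.21, limma adjusted p = 0.422) and -0.44 in trained mice (SE 0.21, adjusted p = 0.488), had 95% intervals that included 0. Over both groups the difference was -0.44 log2 (SE 0.15, 95% interval -0.75 to -0.12), and its limma adjusted p of 0.15 did not pass the threshold.

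Slpi, the secretory leukocyte protease inhibitor that blocks neutrophil elastase and cathepsin G, was the tightest of the 10 genes before the period. Its log2 levels were 4.005, 4.007 and 3.942 in untrained pre arrays and 4.007, 4.050 and 3.969 in trained pre arrays. After the period they were 3.19, 3.54 and 3.30 in untrained mice and 3.78, 4.16 and 3.46 in trained mice. All untrained post arrays were below all pre arrays, whereas trained post replicate 2 was the highest of the 12. The Slpi difference over time was -0.64 log2 in untrained mice (SE 0.15, limma adjusted p = 0.0805), -0.21 in trained mice (SE 0.15, adjusted p = 0.723) and -0.43 over both (SE 0.11, adjusted p = 0.0527).

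None of the 4 early granule genes passed the test in either training group or over both, and 1 of them, Lcn2, had an unadjusted p under 0.05 in each (as did 6.77%, 5.41% and 8.14% of all features in the lower direction). Ltf encodes lactoferrin, the iron-binding protein of specific granules, and had the only positive difference. Its log2 levels were 3.01, 2.90 and 2.84 before and 3.63, 2.97 and 3.00 after in untrained mice, and 2.43, 2.98 and 2.98 before and 3.22, 3.55 and 2.67 after in trained mice. The groups overlapped in both, and the difference over both was 0.31 log2 (SE 0.16, limma adjusted p = 0.393), with 0.51 in batch 1 and -0.08 in batch 2.

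Camp, the precursor of the antimicrobial peptide cathelicidin, gave a weak signal, with log2 levels of 2.08, 1.57 and 1.37 before and 1.28, 1.25 and 1.21 after in untrained mice, and 1.29, 1.72 and 1.58 before and 1.78, 1.11 and 1.47 after in trained mice. Its mean over the arrays (1.48) lay near the median of all features (1.47), so that the size of its differences is uncertain. They were -0.42 log2 in untrained mice (SE 0.20, limma adjusted p = 0.418), without overlap of the groups, and -0.08 in trained mice (SE 0.20, adjusted p = 0.955).

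Ngp, a cystatin-related protein of neutrophil granules, had log2 levels of 5.43, 5.04 and 4.27 before and 4.65, 4.56 and 3.81 after in untrained mice, and of 4.47, 4.92 and 4.95 before and 5.34, 4.24 and 4.27 after in trained mice. Its groups overlapped in both, with differences of -0.57 log2 (SE 0.29, limma adjusted p = 0.458) and -0.16 (SE 0.29, adjusted p = 0.926).

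Lcn2, neutrophil gelatinase-associated lipocalin, which captures bacterial iron carriers, differed between the batches, whereas its difference over the training period missed the threshold. Its log2 levels were 7.50, 7.60 and 6.30 in untrained pre, 6.99, 7.59 and 5.54 in untrained post, 7.65, 7.52 and 6.38 in trained pre and 7.36, 6.87 and 5.54 in trained post arrays. Replicate 3 was the lowest array of every group. The batch term of the model gave batch 2 minus batch 1 as -1.44 log2 (SE 0.14, limma adjusted p = 0.00135), and Lcn2 was 1 of 42 features called lower in batch 2 (0.153% of all). No other member was called for batch, the next being Retnlg at -0.85 (SE 0.21, adjusted p = 0.299), although all 10 genes had negative batch values. Over time the Lcn2 difference was -0.43 in untrained (SE 0.19, adjusted p = 0.37), -0.60 in trained (SE 0.19, adjusted p = 0.228) and -0.51 over both groups (SE 0.13, adjusted p = 0.0592).

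Taking all members, 2 of 10 fell in untrained mice (S100a8 and S100a9), where limma called 0.511% of all features lower, and 1 of 10 fell in trained mice (Retnlg), where it called 0.139% lower. Over both groups 3 of 10 fell, against 1.92% of all features called lower. No member was called higher in these comparisons (0.164%, 0.142% and 1.3% of all features), which share no arrays between the training groups but share all of them with the comparison over both. The post arrays lay wholly below the pre arrays for 7 of 10 members in untrained mice (8.43% of all features), for 3 of 10 in trained mice (7.78%) and for 3 of 10 over both (1.05%). The median difference of the members was -0.61 log2 in untrained and -0.48 in trained mice, whereas the median of all features was 0.02 and 0.0045.

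**Figure D2:**
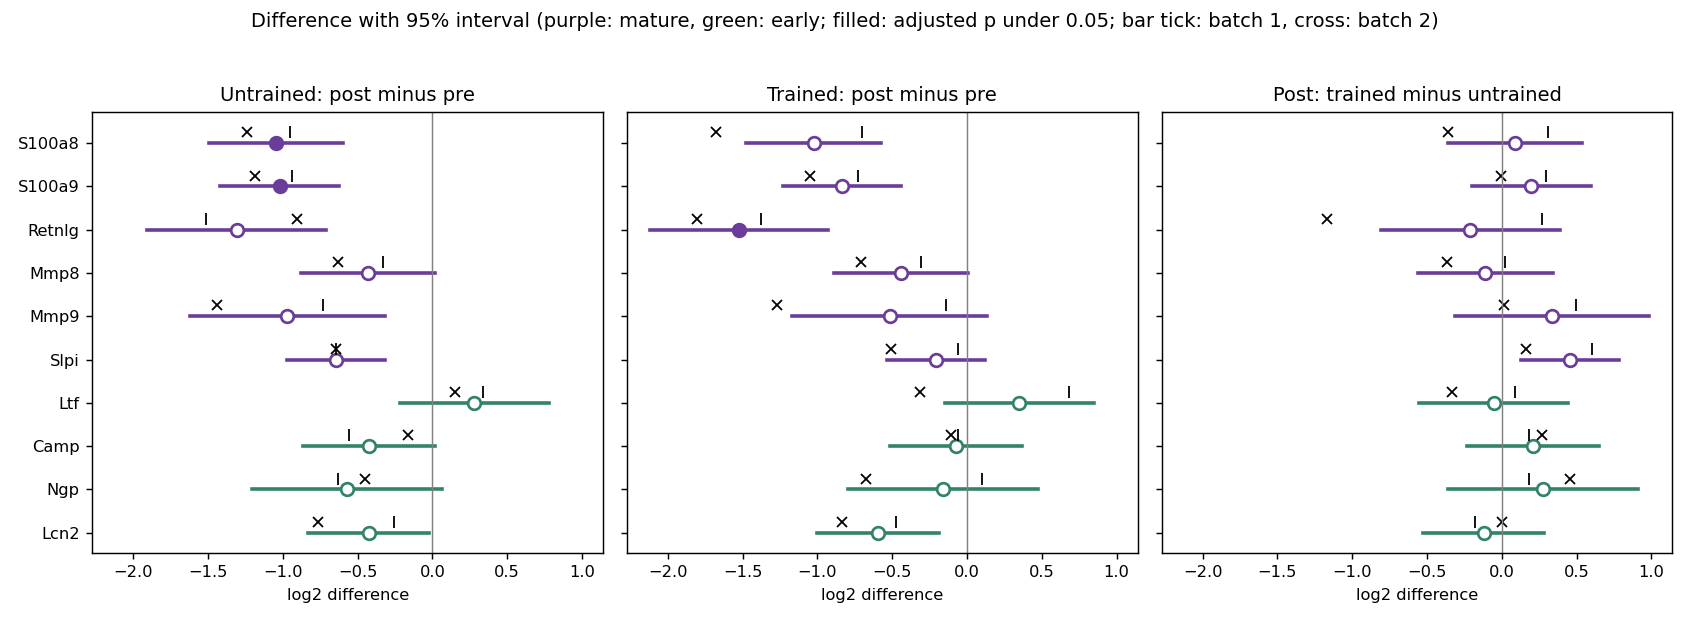
Log2 difference (x axis) of each gene in 3 comparisons, with its 95% interval as a line, filled points where the limma adjusted p was under 0.05, and ticks and crosses for the values in batch 1 and batch 2. S100a8 and S100a9 pass in untrained mice and Retnlg in trained mice, and no gene passes between trained and untrained mice after the period.

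Whether learning of the task altered these transcripts was asked by comparing trained with untrained mice after the period, on the same post arrays that entered the comparisons over time. None of the 10 genes passed (limma called 0% of all features in either direction), and 1, Slpi, had an unadjusted p under 0.05 in the higher direction, as did 3.03% of all features, with 3.38% in the lower direction. Slpi was 0.46 log2 higher in trained mice, or 1.37-fold (SE 0.15, 95% interval 0.13 to 0.79, limma adjusted p = 0.723), and the value was 0.61 in batch 1 and 0.16 in batch 2. Trained post replicate 3 (3.46) lay inside the untrained range of Slpi, so the groups overlapped. The differences of the other 9 genes ranged from -0.21 for Retnlg to 0.34 for Mmp9, with all groups overlapping, where 4.84% of all features lay wholly higher and 7.29% wholly lower in trained mice.

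The intervals for the alarmins were wide relative to their values. For S100a8 the difference of 0.09 log2 had an interval of -0.36 to 0.54, and for S100a9 that of 0.20 ran from -0.20 to 0.59, so with 3 arrays per group these differences could not be told from 0 or from other values between those bounds. In batch 1 both were higher in trained mice (0.31 and 0.30), whereas in batch 2 they stood at -0.36 and -0.01. Retnlg showed the widest split, with 0.27 in batch 1 and -1.17 in batch 2.

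Before the period the groups differed by -0.14 to 0.07 log2 in the 10 genes, with 0 called by limma (0% of all features) and 0 at an unadjusted p under 0.05 (2.19% of all features higher and 2.01% lower). The interaction of training and time, which asks whether the change over the period differed between the training groups, called 0 of the 10 genes, with 0 at an unadjusted p under 0.05 (2.8% of all features in the positive and 2.87% in the negative direction), and called 0% of all features in the positive and 0.00365% in the negative direction. It was largest for Mmp9 at 0.45 log2 (SE 0.42, limma adjusted p = 0.947) and Slpi at 0.43 (SE 0.21, adjusted p = 0.885). The calls of S100a8 and S100a9 in untrained and of Retnlg in trained mice alone are therefore not shown to differ between the training groups, with interactions of 0.02 for S100a8, 0.18 for S100a9 and -0.21 for Retnlg.

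The mature products were set against the early granule genes. The median difference of the mature products was -0.99 log2 in untrained mice, -0.68 in trained mice and -0.84 over both, and that of the early granule genes was -0.43, -0.12 and -0.31. The gap between the class medians was thus -0.57, -0.56 and -0.53 log2. Single genes of the classes overlapped. Over both groups Lcn2, an early gene, was at -0.51, lower than Mmp8 (-0.44) and Slpi (-0.43). S100a8, S100a9, Retnlg and Mmp9 lay below every early gene there. In trained mice Lcn2 (-0.60) was lower than Mmp9 (-0.52), Mmp8 (-0.44) and Slpi (-0.21), and in untrained mice Ngp (-0.57) was lower than Mmp8 (-0.43). Leaving out any member kept the gap over both groups between -0.62 (without Mmp8) and -0.44 (without S100a8). Members were grouped with earlier results of these arrays known and are few, so the gap carries no test.

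In single arrays the same contrast was taken as the mean deviation of the mature products from their means minus that of the early genes. It was -0.23, 0.44 and 0.63 log2 in untrained pre replicates 1, 2 and 3 and 0.40, 0.42 and 0.23 in trained pre replicates. After the period it was -0.64, -0.30 and -0.07 in untrained and -0.37, -0.04 and -0.46 in trained mice. All 6 post arrays were below 0 and 5 of 6 pre arrays above it. Untrained pre replicate 1, with the highest Camp and Ngp levels of the 12 arrays, was the exception and overlapped the post arrays. Without it the gap in untrained mice was -0.88 log2, and without untrained pre replicate 3 it was -0.37. Between trained and untrained mice after the period the gap of the medians was 0.06, with -0.32 in batch 2.

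**Figure D3:**
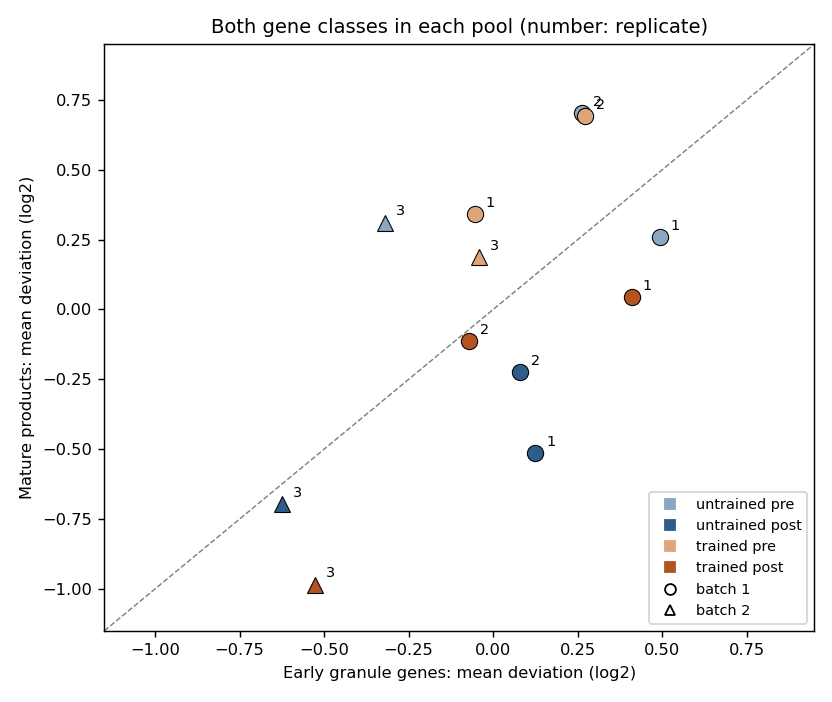
Mean deviation of the 6 mature products (y axis, log2) against that of the 4 early granule genes (x axis, log2) in each of the 12 pools, numbered by replicate, with circles for batch 1, triangles for batch 2 and a dashed line where both classes deviate equally. All post arrays lie below the line and all pre arrays but untrained pre replicate 1 above it.

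Likeness between profiles was measured as the root-mean-square difference of the centred log2 values over the 12 arrays, where a smaller value means a closer course. Among the members S100a8 and S100a9 were the closest pair (0.17 log2), followed by S100a9 and Mmp9 (0.26), Camp and Ngp (0.27) and Mmp8 and Mmp9 (0.28). Outside the members, the 5 features closest to S100a8 were Ly6e, a surface protein of the Ly6 family (0.19), Snord82, a small nucleolar RNA (0.19), Trp53i11 (0.19), Rmrp, the RNA of a mitochondrial RNA-processing endonuclease (0.19), and Neurl3 (0.20). The 5 closest to Ltf were Nbdy (0.16), Atp2a2, a calcium pump of the endoplasmic reticulum (0.16), Gusb, beta-glucuronidase (0.17), Anks3 (0.17) and Srsf3, a splicing factor (0.18). These features share the 12 arrays and their normalization with the members.

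Other neutrophil genes were examined over both groups, where limma called 1.92% of all features lower and 1.3% higher. Of 24 surface and signalling genes 4 fell, 0 rose and 23 had a negative difference, with a median of -0.28 log2. Cxcr4, the receptor for Cxcl12 that holds neutrophils in the marrow and is also present on lymphocytes, fell by 1.18 log2 (SE 0.13, limma adjusted p = 0.00187). It stood at 6.64, 7.24 and 6.68 in untrained pre and 5.69, 5.83 and 5.20 in untrained post arrays, and at 6.56, 7.12 and 6.68 in trained pre and 5.96, 5.84 and 5.29 in trained post arrays. The pre and post arrays were separate, and Cxcr4 also fell in untrained (-1.28, adjusted p = 0.0218) and trained mice (-1.09, adjusted p = 0.0471). Of 8 other settings of the fit, Cxcr4 passed in 7 in untrained mice (limma adjusted p up to 0.108) and in 3 in trained mice (up to 0.412). Selplg, the P-selectin ligand, which is also present on lymphocytes, fell by 1.03 log2 (limma adjusted p = 0.0084) without overlap of the pre and post arrays. Il1b, the cytokine interleukin 1 beta, fell by 0.98 (adjusted p = 0.0384), with the low value of 4.001 in trained post replicate 3. Il1b passed in 5 of 7 other settings of the fit, with limma adjusted p up to 0.334.

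Few other granule genes were called over both groups, beside 1.3% of all features called higher and 1.92% lower. At an unadjusted limma p under 0.05 the shares of all features were 7.33% and 8.14%. None of 8 measured primary granule genes was called, with 0 at an unadjusted limma p under 0.05 and a median of 0.06 log2, and Elane, neutrophil elastase, was at 0.06 (SE 0.21). Of 21 other specific and gelatinase granule genes 3 were higher and 4 lower at an unadjusted limma p under 0.05. By adjusted p 1 rose and 0 fell, and the median of the list was -0.07. The gene that rose was Hpse, heparanase, an enzyme that cleaves heparan sulfate in neutrophils and platelets. It stood at 5.87, 5.59 and 5.80 in untrained pre, 6.52, 6.39 and 6.61 in untrained post, 5.48, 6.04 and 5.66 in trained pre and 6.27, 6.79 and 6.66 in trained post arrays. All 6 post arrays were above all pre arrays, a rise of 0.80 log2 (SE 0.12, limma adjusted p = 0.00569). Chil3, the chitinase-like protein Ym1, had a difference of 1.45 log2 (SE 0.36, adjusted p = 0.0512), with untrained post values of 5.37, 4.25 and 3.76 against untrained pre values of 2.80, 2.68 and 2.52. In trained mice its groups overlapped.

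The counts of this paragraph stand beside 1.92% of all features called lower over both groups. Among protease inhibitors of the neutrophil cytosol, 1 of 6 measured genes fell. This was Serpinb1a, an inhibitor of elastase, cathepsin G and proteinase 3, by 1.13 log2 (SE 0.22, limma adjusted p = 0.0158). Of 12 other S100 genes measured 1 fell, S100a6, by 0.78 log2 (SE 0.17, adjusted p = 0.0298), and the median was 0.06. S100a6 passed in 5 of 7 other settings, with limma adjusted p up to 0.21. Of 11 granulocyte transcription factors 1 fell, Spi1, which encodes PU.1, by 0.85 log2 (SE 0.16, adjusted p = 0.014), and Cebpa was at -0.15 (adjusted p = 0.575). Spi1 passed in 6 of 7 other settings, with limma adjusted p up to 0.125. Of 8 measured metalloproteinase and elastase inhibitors 1 fell, Serpina1b, an alpha-1-antitrypsin, by 0.54 log2 at a low level (adjusted p = 0.0441). Its difference was -1.01 log2 in untrained mice (limma adjusted p = 0.0375, called in 0 of 6 fits with 1 array left out) and -0.08 in trained mice (adjusted p = 0.945). The difference between these was 0.93 log2 (SE 0.26, adjusted p = 0.827) and did not pass the test.

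Receptors and relatives of the members gave no call. By limma 0 of 12 receptors for alarmins and granule proteins, 0 of 9 neutrophil chemokines and growth factors, 0 of 3 other resistin genes, 0 of 5 whey acidic protein relatives of Slpi and 0 of 11 other lipocalins passed. At an unadjusted p under 0.05, 3 receptors were lower, 2 chemokines higher, 0 resistin genes in either direction, 1 whey acidic protein relative higher and 1 lower, and 2 lipocalins higher, beside 7.33% of all features higher and 8.14% lower. The receptor subunit Ly96, which serves Tlr4, was at -0.47 log2 (adjusted p = 0.197), the chemokine Cxcl2 at -0.25 (adjusted p = 0.493), and Retn, resistin itself, at -0.13 (adjusted p = 0.704).

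**Figure D4:**
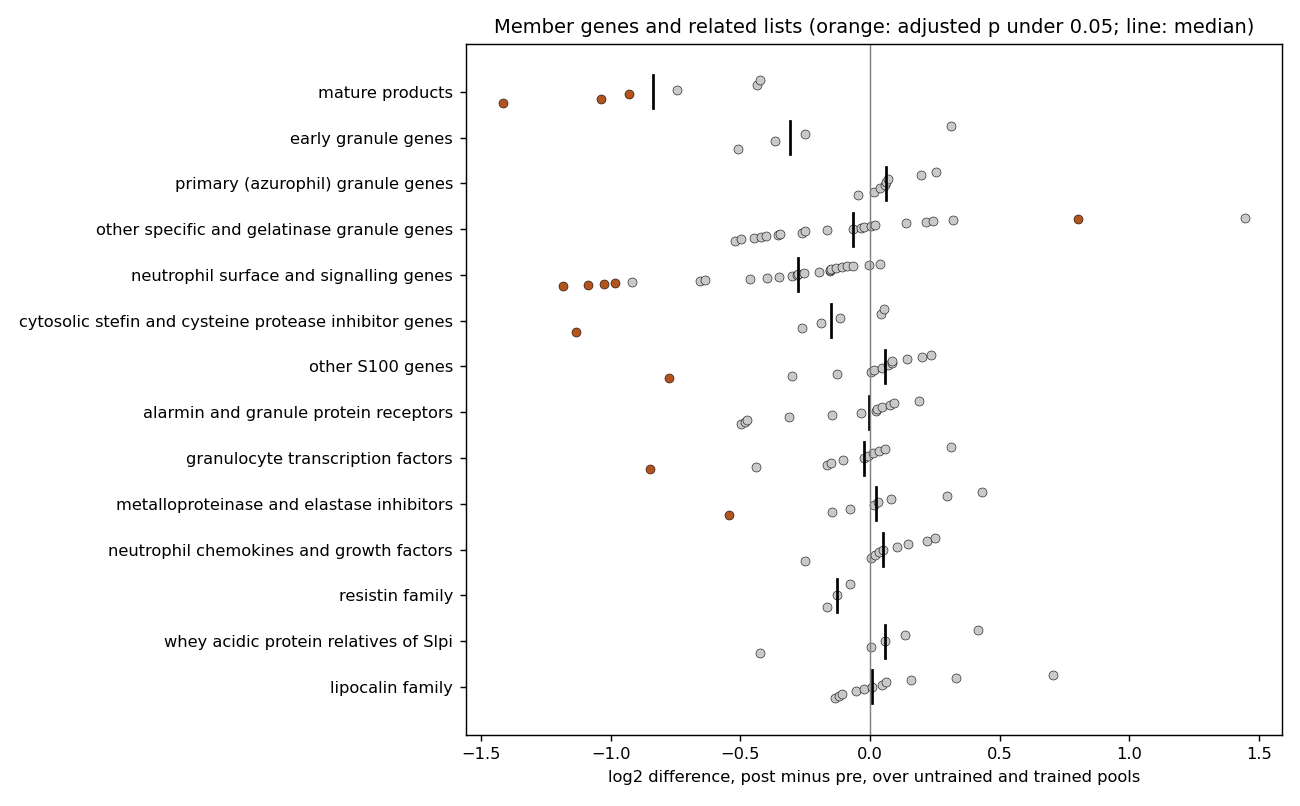
Log2 difference between post and pre arrays over both training groups (x axis) for each gene of the 2 member classes and of related lists, with orange points where the limma adjusted p was under 0.05 and a vertical line at each list's median. The mature products have the lowest median (-0.84), the primary granule genes lie around 0 (0.06), and Hpse is the only orange point on the positive side.

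Markers of other blood cells moved over the same period, where limma called 1.92% of all features lower and 1.3% higher. All 7 B cell genes fell over both groups, with a median of -1.71 log2, and their mean deviation ranged from 0.73 to 0.93 in untrained pre, -1.66 to -0.61 in untrained post, 0.67 to 0.88 in trained pre and -1.41 to 0.26 in trained post arrays. Of 8 platelet genes 4 rose (median 0.42), with scores of -0.29 to -0.14, 0.05 to 0.29, -0.37 to -0.06 and 0.19 to 0.45 in the same order. Of 8 monocyte genes 2 fell and 1 rose (median -0.38), and of 8 measured eosinophil genes 1 fell (median -0.15). Of 8 T cell genes 0 were called, with 4 lower at an unadjusted limma p under 0.05 (median -0.30). Among the proliferation genes of marrow 1 of 8 rose, Mki67, by 0.55 log2. Of 7 measured erythroid and 8 skeletal muscle genes 0 were called. At an unadjusted limma p under 0.05, 2 erythroid genes were higher and 2 lower, and 0 skeletal muscle genes passed. The shares of all features at that unadjusted threshold were 7.33% higher and 8.14% lower.

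Of 8 airway and skin genes 2 rose over the same period, where limma called 1.3% of all features higher. Bpifa1 and Scgb1a1, both secreted by the airway lining, rose by 4.36 and 4.22 log2 (limma adjusted p = 0.00466 and 0.0197). The score of that list ranged from -0.83 to -0.29 in untrained pre, 0.17 to 1.46 in untrained post, -0.84 to -0.48 in trained pre and 0.05 to 1.37 in trained post arrays. Slpi, Ltf and Lcn2 are also made by airway epithelium. Between trained and untrained mice after the period the medians were 0.51 log2 for the B cell, 0.29 for the T cell and 0.35 for the monocyte genes, beside 0.14 for the mature products. They were 0.11 for eosinophil, 0.10 for platelet, -0.06 for erythroid, -0.17 for proliferation, -0.18 for airway and skin and -0.36 for skeletal muscle genes. By limma 0 genes of these lists were called (0% of all features). Before the period the medians were already 0.10 for the T cell and 0.14 for the monocyte genes, and -0.01 for the B cell genes. The part of these cells in the values of the neutrophil genes was not tested.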

How the data were processed

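The deposited values were log2 intensities, which the authors had computed by Robust Multiarray Average (RMA) with Brainarray probe sets per Entrez gene (affy 1.62.0 under R 3.6.0, per the submitters' notes). Quantile normalization in that step sets the probe signals of all arrays to 1 distribution, so values show changes relative to other transcripts. An adjustment for batch before deposit is neither stated nor excluded by the sources used. Symbols came from the platform table for 26794 of 27381 features and from RefSeq for 564.

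The 4 group means with batch as a term were fitted to all features with limma 3.58.1 in R 4.3.3 over 6 contrasts. The fit used lmFit and eBayes, two-sided, with Benjamini-Hochberg over all features, a threshold of 0.05 and 7 residual degrees of freedom. It was also run on simulated data with independent noise and no batch shift, which says nothing of the stability of the calls here. No filter was set for the tests, and the number of arrays limits the precision. Members and 21 other lists were chosen with earlier results of these data known. All members were named, and up to 4 genes per list, first those past the threshold by p, then by size. One gene of the surface and signalling list is not reported here by name. Alternatives were no batch term, a replicate block, the compared arrays, each batch, a level filter, quantile normalization, median centring, limma's trend and each array left out. The study bled trained and control mice both before and after the period and paired them as littermates. Which mice entered which pool is not stated in the sources used, so the 4 groups were fitted as independent. The replicate numbers were not treated as pairs, since the sources used do not say that they mark pairs. Of 18 same-number pairs of arrays 2 had an r over 0.1 (-0.19 to 0.135). This r was taken over all features on the values left after removal of the group means, without a batch term. It cannot show whether same-number pools held the same or littermate mice.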

Additional observations from a re-analysis of the deposited data

How the results depend on the processing

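The counts of called members within 1 training group changed with the processing. In untrained mice the 2 members called became 0 with no batch term, in batch 1 alone, after quantile normalization and with limma's trend. The count was 1 with the replicate block (the numbers are not known to pair the arrays) and 1 with the compared arrays only. It was 3 with features at or above the median level. In trained mice the 1 member called became 0 with no batch term, with the replicate block, in batch 1 alone, after median centring and with limma's trend, and 2 with that filter. Over both groups the 3 members called became 5 with that filter, 4 with the replicate block and 2 in batch 1 alone. Leaving out 1 array gave 0 to 2 members called in untrained, 0 to 3 in trained and 3 to 5 over both groups. Of 7 alternatives, S100a8 and Retnlg passed over both groups in 7 and S100a9 in 6 (limma adjusted p up to 0.073).

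No test was run within batch 2, which held a single array of each group. There the gap between mature products and early granule genes was -0.89 log2 over both groups (from -0.53), -0.32 between trained and untrained mice after the period (from 0.06) and -0.32 before it (from 0.14). With 1 array left out the gap ranged from -0.88 to -0.37 in untrained mice, -0.83 to -0.35 in trained mice, -0.75 to -0.36 over both, and -0.21 to 0.28 between the groups before the period.

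Signs of small differences turned. After the period, trained against untrained mice gave 0.27 for Retnlg, 0.0196 for Mmp8 and 0.0872 for Ltf in batch 1, and -0.36 for S100a8, -0.00712 for S100a9 and 0.00175 for Lcn2 in batch 2. With 1 array left out the range was -0.45 to 0.13 for Retnlg, -0.19 to 0.0553 for Mmp8, -0.23 to 0.17 for Ltf, -0.27 to 0.0942 for Lcn2, -0.13 to 0.38 for S100a8 and -0.0206 to 0.56 for Ngp. Over the period in trained mice Ngp was at 0.10 in batch 1 and Ltf at -0.32 in batch 2, and with 1 array left out Camp ranged from -0.23 to 0.13 and Ngp from -0.46 to 0.18. Over both groups Ltf was at -0.0806 in batch 2. The cause was not tested.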
